A study of Homo sapiens with 6 samples.

Results

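The 14 regions described here are control regions of imprinted genes on the human autosomes, each named for a gene it governs or lies in: DIRAS3 on chromosome 1, NAP1L5 on chromosome 4, FAM50B, PLAGL1 and IGF2R on chromosome 6, GRB10, PEG10 and MEST on chromosome 7, RB1 on chromosome 13, MEG3 on chromosome 14, SNRPN on chromosome 15, PEG3 on chromosome 19, and NNAT and L3MBTL1 on chromosome 20. A CpG inside 1 of these hg19 intervals was kept when at least 10 reads covered it in 2 or more SAM libraries and in 2 or more control libraries, with the C of both strands joined. This gave 214 member CpGs in 11 regions, out of 405 listed CpGs in the intervals and 686608 CpGs of the whole data set that met the same read rule. The members lie in 62 stretches of neighbouring CpGs whose read numbers move together, so CpGs of a stretch share reads and are not independent measurements. The cells were PC-3, an established prostate carcinoma line. The 3 libraries labelled SAM came from cells given S-adenosylmethionine, the methyl donor of DNA methyltransferases, at 160 µM for 5 days, and the 3 control libraries from cells given PBS for 5 days. The labels do not say whether the 3 libraries of a group were separate cultures, so p-values measure the spread between these libraries, which may be technical. All 6 libraries come from 1 cell line, and no normal prostate cells were measured.

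Imprinted genes are expressed from only one parental copy. Their control regions receive DNA methylation in the egg or the sperm and keep it on that copy in body cells, so that a normal tissue shows methylated and unmethylated molecules side by side at an intermediate level. All the regions here are methylated on the maternal copy in normal tissue, except the MEG3 region, where the paternal copy carries the mark. In tumour cells such regions can gain methylation on both copies or lose it from both. The zinc finger protein ZFP57 binds methylated copies at the hexamer TGCCGC and protects them in the early embryo.

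The promoter sequences of PLAGL1, GRB10, MESTIT1 and SNRPN carry members at very different levels. They are printed to show which CpGs were read, in the 250 bases before the transcription start, 5′ to 3′ along the gene's strand, with member CpGs in capitals. The sequences are RefSeq's for GRCh38.p14, while the deposited lists use hg19. CpGs were therefore matched by the order and spacing of their CG letters, with no conversion of coordinates. Placements that left a listed CpG unmatched were not used. The closest margin was at GRB10, where 10 listed CpGs matched, against 5 at the next best place. The PLAGL1 window, at chr6:144008260-144008509 on the minus strand, has 14 members among 32 CG. The GRB10 window, at chr7:50782897-50783146 on the minus strand, has 7 members among 19 CG. The window of MESTIT1, the antisense transcript of MEST, at chr7:130490978-130491227 on the minus strand, has 7 members among 16 CG. The SNRPN window, at chr15:24954737-24954986 on the plus strand, has 6 members among 12 CG.
PLAGL1: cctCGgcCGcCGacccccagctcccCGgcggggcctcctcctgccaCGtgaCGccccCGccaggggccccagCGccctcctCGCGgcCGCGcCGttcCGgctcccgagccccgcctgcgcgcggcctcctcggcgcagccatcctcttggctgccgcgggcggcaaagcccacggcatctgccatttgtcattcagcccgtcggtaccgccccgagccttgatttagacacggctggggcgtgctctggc
GRB10: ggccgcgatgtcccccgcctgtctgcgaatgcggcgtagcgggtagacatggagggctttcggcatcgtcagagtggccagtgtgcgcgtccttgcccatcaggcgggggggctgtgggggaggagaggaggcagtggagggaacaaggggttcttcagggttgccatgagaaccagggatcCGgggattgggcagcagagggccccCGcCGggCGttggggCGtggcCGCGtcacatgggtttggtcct
MESTIT1: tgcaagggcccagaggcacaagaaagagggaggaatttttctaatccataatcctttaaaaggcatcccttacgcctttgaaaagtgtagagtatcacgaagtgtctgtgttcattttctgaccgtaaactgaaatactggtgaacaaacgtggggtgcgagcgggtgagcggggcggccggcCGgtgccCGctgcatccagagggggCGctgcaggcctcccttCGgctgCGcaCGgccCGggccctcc
SNRPN: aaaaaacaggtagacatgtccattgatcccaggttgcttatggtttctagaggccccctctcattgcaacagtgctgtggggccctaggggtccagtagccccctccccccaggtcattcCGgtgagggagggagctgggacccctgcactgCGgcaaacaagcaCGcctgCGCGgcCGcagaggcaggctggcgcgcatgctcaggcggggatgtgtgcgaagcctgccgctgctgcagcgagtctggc
The hexamer TGCCGC, searched on both strands, has 2 matches in the PLAGL1 window and 2 in the SNRPN window, and none in the GRB10 and MESTIT1 windows. It occurs in 12.7% of 35116 RefSeq promoter windows of 250 bases. A match is only a description of the letters and not a bound site.

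The members did not share 1 level. Their mean level over the groups was under 20% at 50 members, 20 to 80% at 59 members and at least 80% at 105 members. The intermediate class made up 27.6% of members, against 13.4% of all CpGs under the same read rule. Since 40 of its 59 members lie in GRB10, this share is mostly that of 1 region. The class of at least 80% made up 49.1% of members, against 31.5% of all CpGs, and the class under 20% made up 23.4% of members, against 55.1% of all CpGs. The median level was 79.3% over members and 8.33% over all CpGs. These shares describe CpGs that share reads and regions, and no test was made of them. All members of PLAGL1 and PEG10 were under 20%, and all members of IGF2R, RB1, MEG3 and NNAT were at least 80%. Intermediate members came from GRB10 with 40 of 50, L3MBTL1 with 7 of 12, MEST with 5 of 52, PEG3 with 4 of 4 and SNRPN with 3 of 12. At the edge of the read rule, 37 members listed in exactly 2 SAM and 2 control libraries had a mean level of 58.9%, and 64 CpGs that were 1 library short had 60.6%.

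**Figure D1:**
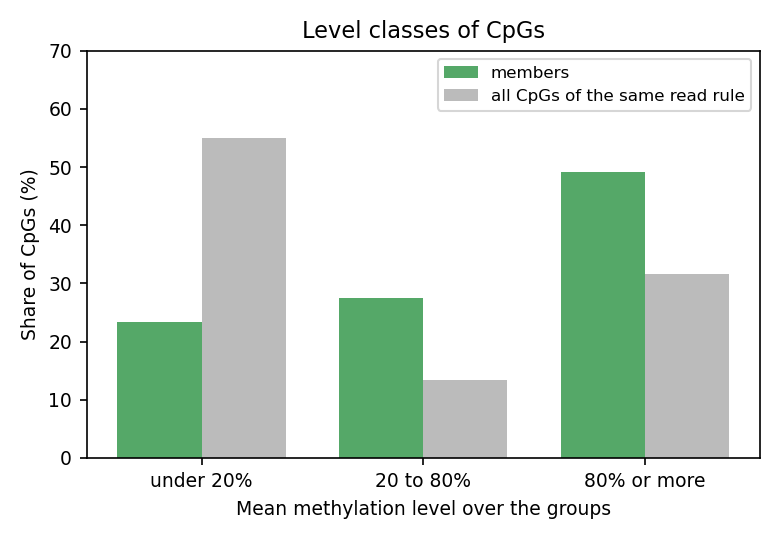
Share of CpGs (percent of CpGs) in 3 classes of mean methylation level, for the 214 member CpGs (green) and for all 686608 CpGs of the same read rule (grey). The intermediate class holds 27.6% of members and 13.4% of all CpGs, and 40 of its 59 members lie in GRB10.

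**Figure D2:**
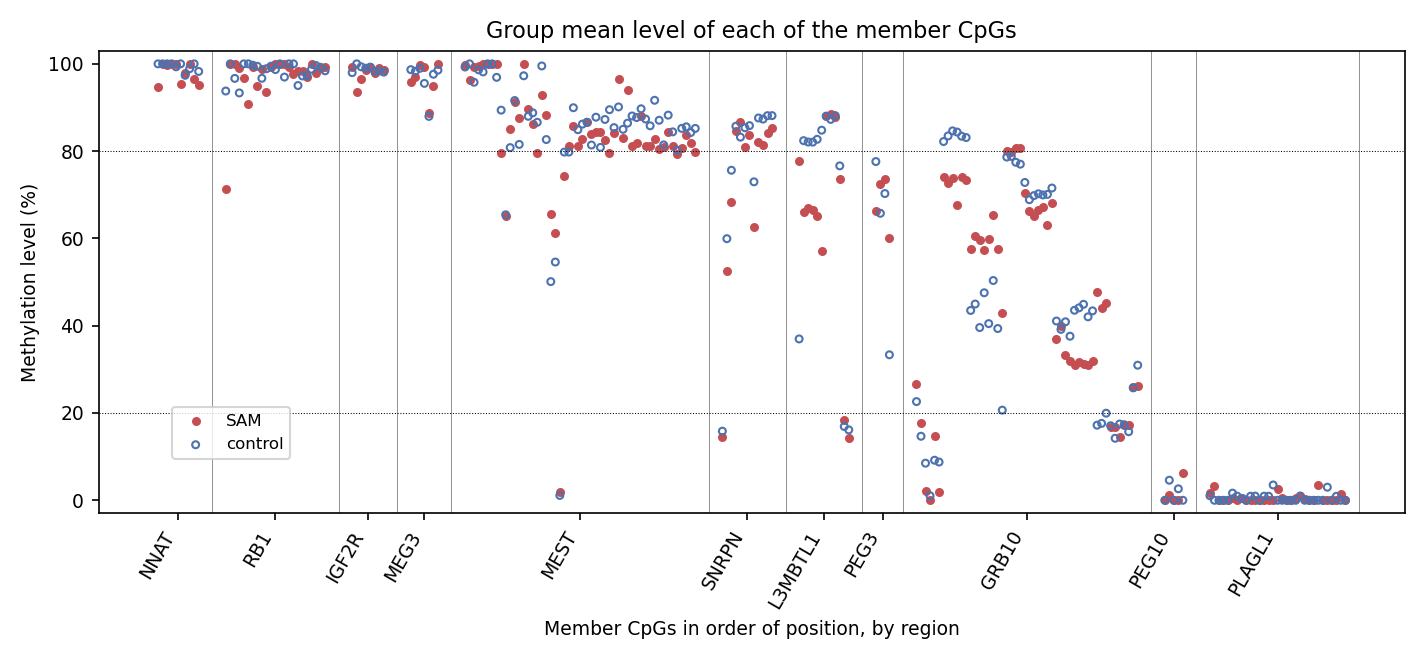
Mean methylation level (percent) of each member CpG in SAM libraries (filled red) and control libraries (open blue), in order of position within each region. Members of NNAT, RB1, IGF2R and MEG3 lie near the top, those of PEG10 and PLAGL1 near 0, and those of GRB10 spread over nearly the whole range in both groups.

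PLAGL1 encodes a zinc finger transcription factor, and its imprinted promoter also starts the noncoding transcript HYMAI. Methylation was close to absent at its 31 members, which span 144328406 to 144329672. Methylated calls, summed over the members, were 30 of 2881 in SAM replicate 1, 0 of 353 in SAM replicate 2 and 1 of 547 in SAM replicate 3, against 11 of 2100 in control replicate 1 and 9 of 1982 in control replicate 3. The count of 0 allows a share of up to 0.85%. Control replicate 2 listed no member here. No member had a mean level above 1.79%, and both groups lay in the same narrow range. The 14 members capitalised in the PLAGL1 sequence averaged 1.10, 0 and 0.51% in SAM replicates 1 to 3, against 0.57 and 0.50% in control replicates 1 and 3. Calls of neighbouring CpGs come from the same reads, and reads copied in amplification cannot be told from independent molecules, so the limit for a count of 0 and all intervals given here cover counting error only.

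PEG10 is a retrotransposon-derived gene whose promoter region is shared with SGCE. Its 5 members had mean levels of 0, 0 and 3.25% in SAM replicates 1 to 3, against 1.05, 6.90 and 0% in control replicates 1 to 3. SAM replicate 2 and control replicate 2 listed only 2 of the 5. All 6 libraries were low and the groups overlapped. The level differed between the 2 sides of the region. Within 10 kb before it, 11 CpGs stood at 0.64% ± 0.28 with SAM and 1.15% ± 0.85 in control libraries (SD, n = 3 each), and within 10 kb after it, 3 CpGs stood at 97.2% ± 2.79 with SAM and 99.7% ± 0.50 in control libraries (SD, n = 3 each).

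In 4 regions the members were almost fully methylated in every library but for single CpGs. NNAT, which encodes the neuronal membrane protein neuronatin and sits inside an intron of BLCAP, had 10 members. Their means were 97.3, 97.4 and 99% in SAM replicates 1 to 3, against 98.6, 99.6 and 100% in control replicates 1 to 3. IGF2R encodes a receptor that clears the growth factor IGF2, and its control region lies in an intron. Its 8 members averaged 99.03, 96.9 and 97.6% in SAM replicates 1 to 3, against 98.5, 99.7 and 98.3% in control replicates 1 to 3. These CpGs lay in 2 stretches, and the stretch from 160427040 to 160427093 was read deeply, with medians of 1324, 256 and 332 reads in SAM replicates and 732, 107 and 1767 reads in control replicates. Its level stayed between 97.8 and 99.1% in all 6 libraries. The 6 CpGs in the 10 kb before this region were also high, at 99.7% ± 0.39 with SAM and 98.99% ± 0.48 in control libraries (SD, n = 3 each). No CpG in the 10 kb after it met the read rule, and whether the methylated state is continuous was not measured.

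The MEG3 region spans the start of the noncoding RNA MEG3 and, upstream, the intergenic control element between DLK1 and MEG3. All 7 members lie in its MEG3 end, between 101290524 and 101293806, and the intergenic end had none. The 3 members read in every library averaged 96.7, 95.6 and 91.2% in SAM replicates 1 to 3, against 89.6, 96.2 and 98.3% in control replicates 1 to 3. The groups overlapped, and all 7 members of the MEG3 end had mean levels of at least 80%. Within 10 kb after the region, 8 CpGs were lower, at 69.2% with SAM and 58.6% in control libraries. The lowest member, at 101293786, had 19 of 20, 13 of 15 and 16 of 19 methylated reads in SAM replicates 1 to 3, against 31 of 45, 28 of 28 and 19 of 20 in control replicates 1 to 3. Control replicate 1 stood below the other 5 libraries there at 68.9%, with a Wilson 95% interval of 54.3 to 80.5%.

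The RB1 region lies in an intron of RB1, the cell cycle brake that holds back E2F factors. It had 23 members with a median level of 98.5%, and those read in all 6 libraries averaged 97.7, 89.2 and 98.9% in SAM replicates 1 to 3, against 99.8, 98.9 and 94.0% in control replicates 1 to 3. A single CpG set the low value of SAM replicate 2. At 48892668 that library had 5 methylated of 36 reads, or 13.9% with a Wilson 95% interval of 6.08 to 28.7%. SAM replicates 1 and 3 had 49 of 49 and 380 of 380 there, against 206 of 206, 184 of 184 and 74 of 91 in control replicates 1 to 3. The next member, 13 bases on at 48892681 and covered by 37 reads in SAM replicate 2, was at 100% in that library. Without SAM replicate 2 the difference of the region, SAM minus control, was 0.72 points, against -2.29 points with it.

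MEST encodes a protein of the hydrolase fold family, and MESTIT1 is read from the opposite strand of the same region. The 52 members had a median level of 84.6%, above the intermediate range, and 46 of them were at least 80%. The 20 members read in all libraries averaged 87.1, 84.0 and 89.2% in SAM replicates 1 to 3, against 89.0, 89.7 and 85.5% in control replicates 1 to 3. Within 10 kb before the region the 8 CpGs were at 1.67% ± 1.56 with SAM and at 0% ± 0 in control libraries (SD, n = 3 each). Where the change from these CpGs to the high members lay, and how sharp it was, was not measured. Inside the region, the 7 members of the MESTIT1 window, in order of hg19 position, ended in 1 CpG with almost no methylation. The printed sequence runs the other way, so this CpG is its first capital CG, 67 bases before the start. The member at 130130842, like the 3 before it, was high. It had 81.8 and 94.9% in SAM replicates 1 and 3, against 88.2, 78.6 and 81.2% in control replicates 1 to 3. At 130130859 the level was 41.9 and 89.5% in SAM replicates 1 and 3, against 38, 46.2 and 66.2% in control replicates 1 to 3. The member at 130130877, named after its values were seen, had 41.5 and 81.1% in SAM replicates 1 and 3, against 40.4 and 68.8% in control replicates 1 and 3. The member at 130130884, 7 bases further and the lowest of the region, had 0 of 41 and 1 of 25 methylated reads in SAM replicates 1 and 3, against 1 of 45 and 0 of 51 in control replicates 1 and 3. The member at 130130884 was thus low in all 4 libraries that listed it, with reads from the plus strand only. The part of the read ends in this low level was not tested. At 130130877 SAM replicate 3 was close to its own level at the members before it.

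SNRPN encodes a splicing protein of neurons, and its first exon is part of the imprinting centre of the Prader-Willi region. The levels climbed over short distances. In the SNRPN window the member at 25200004 had 10.8 and 18.2% in SAM replicates 1 and 3, against 19.05 and 12.6% in control replicates 1 and 3. At 25200036, 32 bases on and inside a match to the ZFP57 hexamer, the level was 50.6 and 54.5% in SAM replicates 1 and 3, against 57.1 and 62.7% in control replicates 1 and 3. By 25200061 it was 81.7 and 80% in SAM replicates 1 and 3, against 91.3 and 79.4% in control replicates 1 and 3. The same climb was seen in all 4 libraries, in 83 median reads of SAM replicate 1, 11 of SAM replicate 3, 23 of control replicate 1 and 102.5 of control replicate 3. These reads came from the plus strand only, and the part of the read ends in the climb was not tested. The 6 members from 25200152 to 25200202 averaged 83.9, 77.1 and 78.7% in SAM replicates 1 to 3, against 81.3, 92.1 and 81.6% in control replicates 1 to 3. Control replicate 2 stood above the other 5 libraries at a median of 33.5 reads.

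L3MBTL1 encodes a chromatin compacting protein related to the Polycomb group. The stretch of 3 members from 42143278 to 42143297 had median reads of 3228, 300 and 494 in SAM replicates 1 to 3 and of 1124, 118 and 3484 in control replicates 1 to 3. Its level was 86.1, 87.9 and 90.1% in SAM replicates, against 87.8, 89.8 and 85.9% in control replicates. At 42143327, 30 bases beyond it, the level was 18.0, 17.9 and 19.2% in SAM replicates 1 to 3, against 20.3, 13.3 and 17.1% in control replicates 1 to 3. This drop was present in all 6 libraries and was larger than any difference between them at either place. The drop went with fewer reads, 489, 39 and 52 in SAM replicates and 153, 15 and 519 in control replicates, and the part of the read ends in it was not tested. At the other end of the region, the 5 members from 42142578 to 42142617 were at 66.0 and 62.6% in SAM replicates 1 and 3, against 80.2, 68.2 and 100% in control replicates 1 to 3. The groups did not overlap in this stretch, and SAM was lower. At the neighbouring member 42142534 the groups did not overlap either, but SAM was higher, with 100 and 55.6% in SAM replicates 1 and 3, against 25, 40.9 and 45% in control replicates 1 to 3. SAM replicate 2 listed neither. Over all 95299 CpGs read in exactly 2 SAM and all 3 control libraries, the groups did not overlap in 6.64%. Of the 62 stretches of all regions, 7 had separate groups, 4 of them with SAM higher and 3 with SAM lower. Each of the 7 lacked at least 1 library, and not always the same one. The share of 6.64% is for single CpGs, and none was computed for stretches of the whole data set. No result about the regions can therefore be read from the count of 7.

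**Figure D3:**
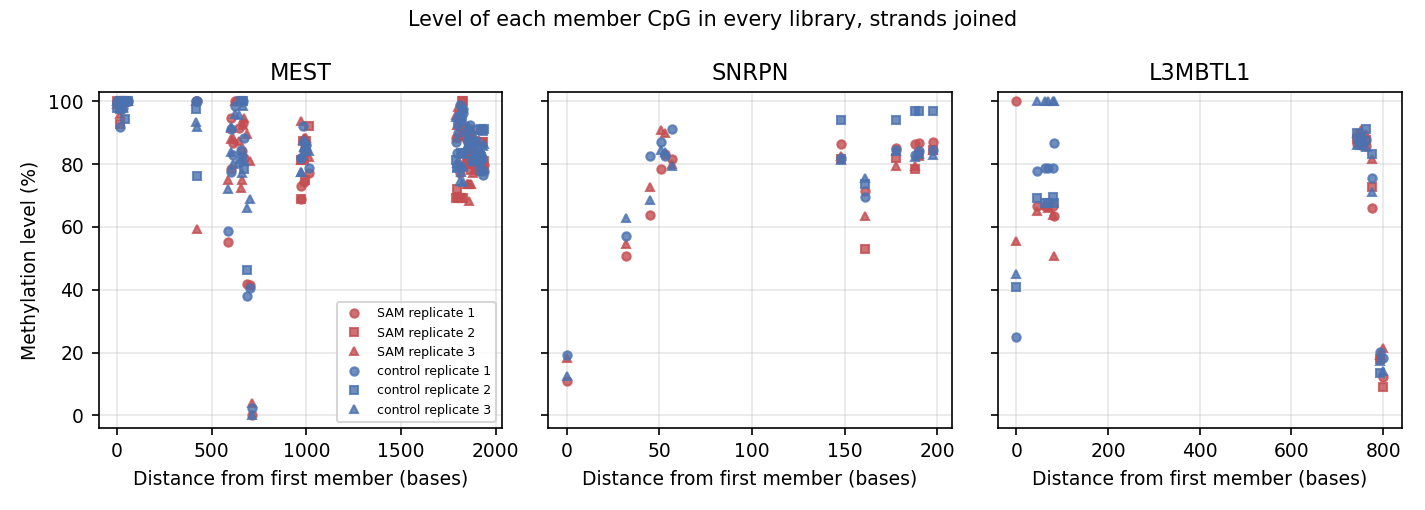
Methylation level (percent, strands joined) of each member CpG in every library against its distance in bases from the first member of the MEST, SNRPN and L3MBTL1 regions; red marks are SAM and blue marks are control. The low member of MEST at 130130884, the climb in SNRPN and the drop to 17.9 to 19.2% with SAM and 13.3 to 20.3% in controls at the end of L3MBTL1 recur in both groups.

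PEG3, a zinc finger gene known for its part in maternal behaviour in mice, had 4 members within 35 bases. Their means were 77.8 and 58.4% in SAM replicates 1 and 3, against 55.6, 73.1 and 66.5% in control replicates 1 to 3. SAM replicate 2 listed none of them, and the groups overlapped. Members read on both strands averaged higher on the plus strand in 4 of 5 libraries, but they were few. Control replicate 2 had only 1 such member, at 16 and 10 reads on the plus and minus strands. SAM replicate 1 and control replicate 1 had 2 each, at median reads of 19.5 and 14 and of 19.5 and 12. In control replicate 3, 3 members were at 92.3% on the plus strand and 43.5% on the minus strand, at median reads of 40 and 23. In SAM replicate 3 the same 3 members were at 57.5% on the plus strand and 58.7% on the minus strand, at median reads of 25 and 34. The order of the strands was therefore not the same in all libraries at PEG3.

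GRB10 encodes an adaptor that dampens insulin and IGF receptor signalling, and its region holds 40 of the 59 intermediate members. The 28 members read in all 6 libraries averaged 53.5, 51.9 and 62.4% in SAM replicates 1 to 3, against 51.7, 60.4 and 44.6% in control replicates 1 to 3. The groups overlapped. The mean of the 50 members over all libraries hid large differences along 626 bases. The lowest member, at 50850051, had 0 of 79 and 0 of 226 methylated reads in SAM replicates 1 and 3, against 0 of 109, 0 of 117 and 3 of 96 in control replicates 1 to 3. The highest member, at 50850316, had 70.6, 84.4 and 85.1% in SAM replicates 1 to 3, against 83.8, 77.3 and 74.8% in control replicates 1 to 3. Past the region the level was near 0, where 82 CpGs in the next 10 kb stood at 0.67% ± 0.48 with SAM and 0.36% ± 0.09 in control libraries (SD, n = 3 each). The place of the change was not measured.

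Single stretches of GRB10 differed between libraries of the same group by far more than the regional mean. From 50850213 to 50850232 the 5 members were at 41.2, 57.0 and 78.9% in SAM replicates 1 to 3, against 9.64, 68.6 and 51.4% in control replicates 1 to 3. From 50850399 to 50850429 the 6 members were at 43.1, 15.5 and 36.0% in SAM replicates, against 73.9, 37.6 and 16.3% in control replicates. From 50850448 to 50850469 the 3 members were at 66.2, 42.4 and 28.5% in SAM replicates, against 16.8, 38.02 and 0% in control replicates. No library was high or low in all of these stretches, and the groups overlapped in each. In the GRB10 window printed above, 5 members from 50850612 to 50850632 averaged 28.6, 15.9 and 5.11% in SAM replicates 1 to 3, against 22.5 and 10.2% in control replicates 1 and 3. In SAM replicate 1 all 5 had the same 28.6%, at a median of 21 reads. Neighbouring CpGs of a stretch share reads, and the median reads of these stretches ran from 11 to 383. Whether repeated copies of few molecules contributed to the spread was not tested.

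In 1 part of the GRB10 region the strands differed in a way that every library with both strands there showed. The 7 members from 50850337 to 50850373, a stretch of 37 bases, were at 72.6, 83.7 and 83.6% on the plus strand in SAM replicates 1 to 3, against 84.4, 74.97 and 74.7% in control replicates 1 to 3. On the minus strand the same 7 CpGs were at 4.15, 5.86 and 8.62% in SAM replicates 1 to 3, against 0.78 and 3.93% in control replicates 1 and 3. Control replicate 2 did not list the minus strand here. The plus strand was read at medians of 393, 72 and 92 reads in SAM replicates and 301, 21 and 412 in control replicates. The minus strand was read at 86, 21 and 16 in SAM replicates and 65 and 55 in control replicates 1 and 3. The gap was larger than the difference between any pair of libraries on either strand. Strands were joined in the means above, so at these CpGs an intermediate joined level is a mean of a high plus strand and a low minus strand weighted by their reads. Over all GRB10 members read on both strands, the plus strand was higher at 8 of 8, 7 of 8 and 19 of 21 in SAM replicates 1 to 3. In control replicates 1 and 3 it was higher at 16 of 19 and 18 of 20. The minus strand was not low along the whole region. From 50850150 to 50850173, read on that strand only, it was at 66.9 and 78.3% in SAM replicates 1 and 3, against 76.1 and 90.9% in control replicates 1 and 3. Strand differences were not rare elsewhere. Among CpGs with a joined level of 20 to 80% that were read on both strands, the median absolute strand difference was 16.1, 21.3 and 17.1 points in SAM replicates 1 to 3, against 18.1, 20.7 and 18.98 points in control replicates 1 to 3. Differences over 50 points were found at 9.69, 19.5 and 8.04% of those CpGs in SAM replicates, against 12.5, 11.8 and 13.1% in control replicates. For the 27 GRB10 members read on both strands in 1 or more libraries, the median absolute strand difference was 61.7 points. This median was taken over all pairs of a member and a library, at any joined level. It is therefore not the same measure as the medians of single libraries above. The 7 members from 50850337 to 50850373, which share reads, enter it once for each library with both strands. The deposited lists do not tell whether the reads of both strands come from the same molecules, or from the same parental copy.

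**Figure D4:**
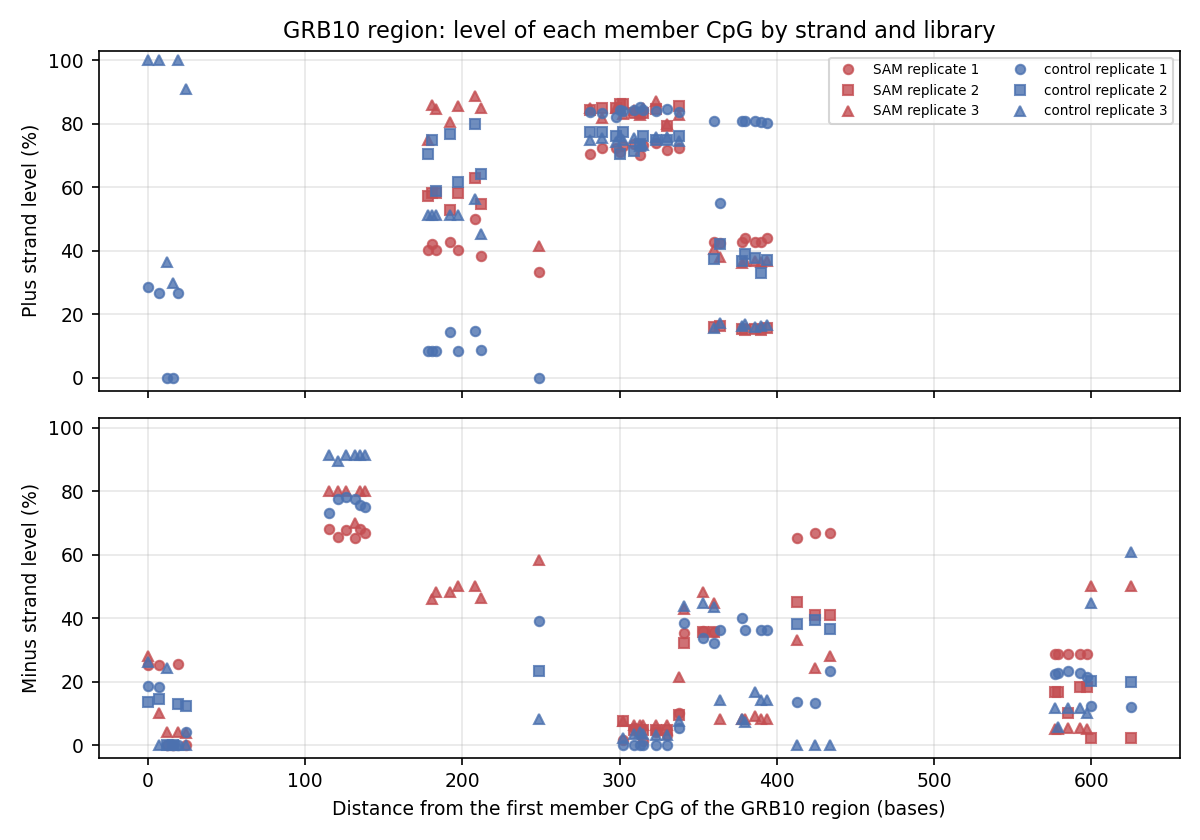
Methylation level (percent) of each GRB10 member CpG on the plus strand (upper panel) and the minus strand (lower panel) against the distance in bases from the first member, for the 3 SAM (red) and 3 control (blue) libraries. Over the 7 members from 50850337 to 50850373, in the middle of the axis, the plus strand averages 72.6 to 83.7% in SAM libraries and 74.7 to 84.4% in control libraries, and the minus strand 4.15 to 8.62% in SAM libraries and 0.78 to 3.93% in control libraries.

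DIRAS3, a small GTPase of the RAS family, had no listed CpG in its region. NAP1L5, a gene of the nucleosome assembly protein family, had 2 listed CpGs and FAM50B had 15, but none met the read rule in both groups. Near FAM50B, 25 CpGs in the 10 kb after the region stood at 98.6% ± 0.38 with SAM and 98.6% ± 0.14 in control libraries (SD, n = 3 each). These 3 regions can therefore not be compared between the groups with these lists.

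SAM and control levels overlapped in each of the 8 regions with at least 3 members read in all 6 libraries. Over all 1 kb tiles with at least 3 such CpGs, the groups did not overlap in 9.09%. None of the 90 members read in all libraries had separate groups, against 4.9% of all 336571 such CpGs. The mean level over these 90 members was 76.9, 74.4 and 80.1% in SAM replicates 1 to 3, against 76.8, 81.0 and 73.6% in control replicates 1 to 3. The means were 77.2% ± 2.86 with SAM and 77.1% ± 3.70 in control libraries (SD, n = 3 each), a difference of 0.02 points with a standard error of 2.70. Both groups had their lowest and highest libraries on either side of the other group's mean.

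**Figure D5:**
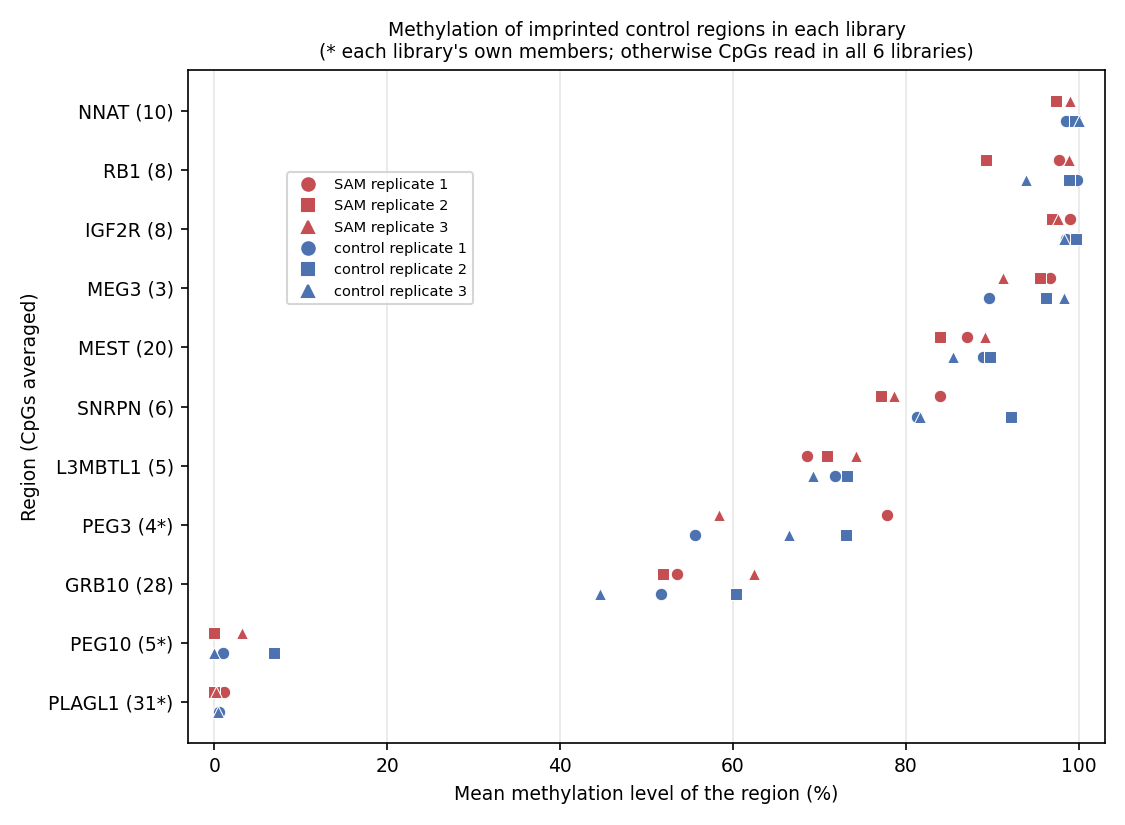
Mean methylation level (percent) of each region in each library, with the number of CpGs averaged in brackets; red marks are SAM and blue marks are control, each mark 1 library. Regions lie from near 0 (PLAGL1, PEG10) through GRB10 at 51.9 to 62.4% with SAM and 44.6 to 60.4% in controls to nearly 100% (NNAT), and SAM and control marks overlap in every region.

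The difference, SAM minus control, was 3.70 points with a standard error of 5.62 at GRB10, where the group means were 55.9% ± 5.66 with SAM and 52.2% ± 7.92 in control libraries (SD, n = 3 each). It changed sign to -5.63 points at a minimum of 20 reads, over 16 CpGs. On the minus strand alone it was 27.4 points, over only 3 CpGs. No direction can therefore be given. At SNRPN the difference was -5.10 points with a standard error of 4.10, from 79.9% ± 3.55 with SAM and 85.0% ± 6.16 in control libraries (SD, n = 3 each). It was -1.55 points without control replicate 2. Read coverage divides the libraries into a set of SAM replicate 1 with control replicates 1 and 3 and a set of SAM replicates 2 and 3 with control replicate 2, and the SNRPN difference was 2.45 points in the first set and -14.2 points in the second. The RB1 difference was -2.29 points with a standard error of 3.53. At a minimum of 20 reads it was -11.3 points, over only 2 CpGs, which include 48892668 with the low value of SAM replicate 2. The NNAT difference was -1.47 points with a standard error of 0.69, from 97.9% ± 0.94 with SAM and 99.4% ± 0.75 in control libraries (SD, n = 3 each). The other 4 regions differed by -0.95 points at IGF2R, -1.28 points at MEST, -0.23 points at MEG3 and -0.17 points at L3MBTL1, with standard errors of 0.76, 1.99, 3.10 and 2.02 points. Each of these 4 differences was under 1.5 times its standard error, and each changed sign under an alternative. IGF2R was at 0.26 points at a minimum of 20 reads, at 0.67 points in the first coverage set and at -2.40 points in the second, and MEST was at 0.11 points without SAM replicate 2. When 1 library was left out, MEG3 ran from -2.77 to 1.58 points and L3MBTL1 from -1.67 to 1.19 points.

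No member CpG passed edgeR's quasi-likelihood test on methylated and unmethylated reads at an adjusted p under 0.05. Nor did any of the 257696 CpGs tested genome-wide (0%), where the smallest adjusted p was 0.89. At an unadjusted p under 0.05, edgeR called 1 of 87 members tested, against 2.81% of all CpGs. limma also gave 0 calls after adjustment, with 1 of 87 members unadjusted against 3.49% of all CpGs. Over the 490928 testable CpGs of the read rule it gave 0 calls as well, with 5 of 195 members unadjusted against 3.68% of all. A quasi-binomial test gave 0 calls, with 4 of 87 members against 11.9% of all CpGs. Over 33591 rows of 1 kb tiles and regions, edgeR, limma and the quasi-binomial test gave 0 calls each, with 3.13, 4.23 and 7.17% at an unadjusted p under 0.05. None of the 20 rows of the 8 regions and their 12 tiles was among the unadjusted calls of any of the 3 tests. NNAT had the smallest edgeR p of these rows, 0.13 unadjusted for the tile from 36148001 and 0.13 for the whole region, both with an adjusted p of 0.9999.

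The 5 members with the smallest edgeR p were all close to full methylation, and in each of them the 3 control libraries were at 100%. The first, at 36149938 in the NNAT region, had 91.6, 100 and 97.7% in SAM replicates 1 to 3, at 95, 26 and 174 reads, against 100% at 90, 52 and 136 reads in control replicates 1 to 3. Its difference was -3.57 points (edgeR adjusted p = 0.89). The others, at 36149907 in NNAT, 160426951 in IGF2R, 48894490 in RB1 and 130130187 in MEST, had differences of -4.67, -6.41, -2.34 and -3.76 points, each with an edgeR adjusted p of 0.89. In each of the 5 at least 1 SAM library was also at 100%, so the groups touched.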

How the data were processed

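Each of the 6 PC-3 libraries has 1 deposited list of CpG cytosines with the strand, a read count (coverage) and the percent of C and of T among those reads, per the file headers. The lowest coverage in every deposited list was 10, so shallower positions are not represented. Bismark 0.7.4, methylKit 0.5.3, CASAVA 1.8.2, FastQC 0.10.0 and hg19 are named per the submitters' processing notes, with no role. Neither the library type nor any filter or duplicate removal is given in the sources used here. Reads over listed positions totalled 33056018 to 183523792.

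Methylated reads were recovered from coverage and percent (100% gave whole reads, within 0.011 percentage points of the deposited percent), and the minus strand C was joined to the plus strand C 1 base before it. Region means weight CpGs equally over CpGs with 10 or more reads in all 6 libraries, or, where stated, each library's own members. A stretch joins neighbours up to 60 bases apart whose reads agree within 1.5-fold in every library. The quasi-likelihood test of edgeR 4.0.16 (R 4.3.3) was fitted to all such CpGs with both kinds of read, and to 1 kb tiles of at least 3 CpGs with the regions as added rows, with Benjamini-Hochberg adjustment over each table. The chromosome 14 region was not divided, since its intergenic end had no member. limma 3.58.1, on log2 ratios with 1 read added, and a quasi-binomial F test were alternatives, as were 20 reads, single strands, coverage weights, a replicate block and leaving out each library.

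The members and lists were chosen with earlier results of these data known. Named are all regions, the 5 members with the smallest p, and the lowest and highest member of a region; other CpGs and stretches were named after their values were seen. Python 3.11.15, pandas 2.3.3, numpy 2.4.6, scipy 1.17.1 and matplotlib 3.10.9 made the descriptive values and plots. Promoter sequences are RefSeq's, and no hg19 genome or annotation was used here.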

Additional observations from a re-analysis of the deposited data

How the results depend on the processing

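The count of 0 calls was the same under all 14 alternatives for CpGs and all 12 for tiles and regions. The mean member difference of 0.02 points was -4.80 points over each library's own members. Those are unlike sets of CpGs, since control replicate 2 listed none of the 31 PLAGL1 members, which were near 0%. In the coverage set of SAM replicates 2 and 3 with control replicate 2, the mean member difference was -3.70 points. It ran from -1.74 to 1.94 points when 1 library was left out. The number of regions with separate groups, 0 of 8, was 1 over each library's own members, where L3MBTL1 had 65.4, 60.6 and 63.4% in SAM replicates 1 to 3, against 66.9, 68.0 and 75.4% in control replicates 1 to 3, and ran from 0 to 2 when 1 library was left out. Of 104 values of single regions under alternatives, 11 moved by more than the spread between libraries, at IGF2R, GRB10, SNRPN, RB1 and L3MBTL1. The causes were not tested. Deviations of same-numbered SAM and control libraries had correlations of -0.01, 0.01 and -0.01 across CpGs. Those of the other pairs ran from -0.02 to 0.02. Since every pair was near 0, these values cannot tell whether the numbers pair the samples. With a replicate block there were 0 calls, and the mean difference was 0.02 points. Libraries with few reads, SAM replicate 2 and control replicate 2, left many members unlisted and limit what can be seen at PLAGL1, PEG3 and SNRPN.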

Other observations

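At 5 further imprinted control regions, located from general knowledge of their positions, the CpGs read in all 6 libraries gave these means. The KCNQ1OT1 region, which silences genes near CDKN1C on the paternal copy, had 46 CpGs at 48.2, 39.1 and 51.0% in SAM replicates 1 to 3, against 52.7, 54.5 and 62.9% in control replicates 1 to 3. Its groups did not overlap, as was the case in 9.09% of all 1 kb tiles, and no test was made of this difference of -10.6 points. The A/B region of GNAS had 42 CpGs at 54.0, 49.7 and 69.8% in SAM replicates, against 65.0, 68.4 and 55.8% in control replicates, with overlapping groups. The control region between H19 and IGF2 had only 4 such CpGs and ranged from 34.9 to 86.0% in SAM replicates and from 62.0 to 89.7% in control replicates. The NESP55 and XL regions of GNAS averaged 75.6% ± 2.79 and 87.8% ± 4.21 with SAM, against 77.4% ± 2.30 and 88.2% ± 0.74 in controls (SD, n = 3 each). The SD over libraries was 28.9 points with SAM and 15.8 points in controls at H19/IGF2, 10.6 and 6.54 points at GNAS A/B, 6.23 and 5.43 points at KCNQ1OT1 and 5.66 and 7.92 points at GRB10. Among 1 kb tiles at 20 to 80% the SD over all 6 libraries had a median of 4.41 points, an upper quartile of 7.59 points and a 90th percentile of 11.7 points.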
